A study of Mus musculus with 12 samples.

Results

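The genes described here encode the proteins of the cytosolic ribosome and the factors that start translation on it, in mouse bone marrow-derived dendritic cells (BMDCs) given lipopolysaccharide (LPS), a component of Gram-negative bacterial walls that activates these cells through Toll-like receptor 4. A gene was taken when an array probe was named through its RefSeq accession, and its symbol began with Rpl or Rps and a digit, with Rplp, or with Eif and a digit. Kinases whose symbols begin with Rps6k or Eif2ak were left out. Of several probes of a gene, the one with the highest mean intensity was used, and a gene stayed in when the scanner software marked the Cy5 signal of that probe as well above background on each of the 3 arrays of some group. This left 130 of the 11077 genes tested: 83 ribosomal protein genes and 47 initiation factor genes. The ribosomal protein genes comprised 46 of the large subunit, 30 of the small subunit and 7 paralogs or relatives that are not part of the standard ribosome. Of the 131 genes with a named probe, only Eif2s3y missed the filter, and 82 of the 83 ribosomal protein genes and 47 of the 47 factor genes were well above background on all 12 arrays.

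The 4 groups of 3 arrays were BMDCs left unstimulated and BMDCs exposed to 100 ng/ml LPS for 1, 6 or 24 h before collection. All of them came from mouse marrow depleted of B and T cells and grown for 5 days with the cytokines GM-CSF (10 ng/ml) and IL-4 (5 ng/ml). No sort of dendritic cells is named, strain and age are not given in the labels, and unstimulated cells were collected at 0 h only, so that LPS and the added hours of culture cannot be told apart. The replicates are described as biological and carry a donor letter A, B or C. Whether 1 letter stands for 1 animal throughout is not stated. Each array set Cy5-labelled RNA of 1 sample against a Cy3-labelled pooled mouse reference RNA, and every value below is a log2 ratio of sample to reference, where 0 means an equal signal and a difference of 1 means 2-fold. The share of probes with a Cy5 signal well above background was 48.2% to 57.6%, and the number of arrays limits the precision. Of 12 dendritic cell markers, 11 were well above background on all 3 arrays in unstimulated cells and at 1 and 6 h, and all 12 at 24 h, while the B cell markers Ms4a1, Pax5 and Cd22 were above background on no array.

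A ribosome is built from a small subunit, which binds the messenger RNA and decodes it, and a large subunit, which joins amino acids. Initiation factors bring the first tRNA and the small subunit to the start codon: eIF4 proteins bind the cap and unwind the leader, eIF2 delivers the initiator tRNA and is recharged by eIF2B, eIF3 holds the small subunit, eIF1 proteins and eIF5 govern start codon choice, and eIF5B joins the large subunit. Most mammalian ribosomal protein messages, and some factor messages, begin with a C followed by a run of pyrimidines, the 5′ terminal oligopyrimidine tract, through which the kinase mTOR sets how well they are translated. An array measures the amount of these messages, not their translation.

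With loess normalization, ribosomal protein genes were called less often than all genes tested, and the initiation factor genes that were called went in both directions. The moderated F test of limma over the 4 groups (adjusted p under 0.05) called 14 of 83 ribosomal protein genes (16.9%) and 21 of 47 factor genes (44.7%), against 51.8% of all genes tested. The median residual SD was 0.25 for ribosomal protein genes, 0.18 for factor genes and 0.19 for all genes tested. A difference of a given size therefore had a larger error in the ribosomal protein genes, and few calls do not show an unchanged level. With each array centred on its median in place of loess, more ribosomal protein genes and fewer factor genes were called at 24 h. All of these were lower, as given below.

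**Figure D1:**
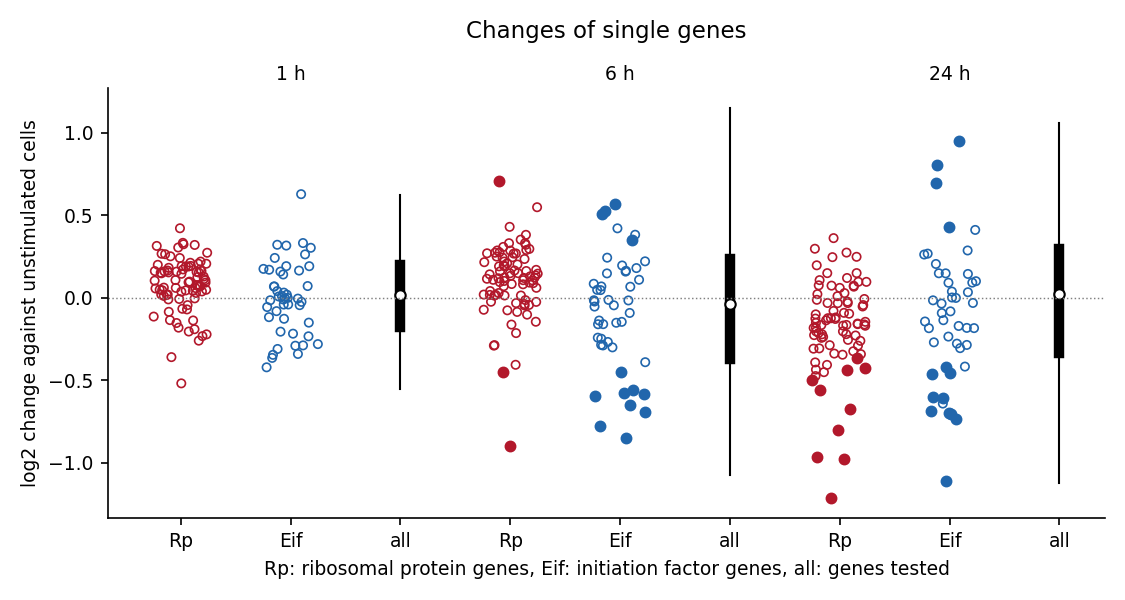
Log2 change of each ribosomal protein gene (Rp, red) and each initiation factor gene (Eif, blue) at 1, 6 and 24 h against unstimulated cells, with called genes filled. The black bars give the interquartile range and the thin lines the range from the 5th to the 95th percentile of all genes tested, and most members lie within that range at every time.

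An array that stood apart has to be named before the family is described. Each gene's values were set against its own mean over the 12 arrays, and the median over the 83 ribosomal protein genes was then taken in each array. It was -0.015, -0.056 and 0.013 in unstimulated donors A, B and C, 0.016, 0.18 and 0.027 at 1 h, 0.11, 0.20 and 0.025 at 6 h, and -0.091, 0.19 and -0.63 at 24 h. The 24 h array of donor C lay far below the others. The highest 3 were all of donor B, both arrays of slide 2 (1 and 24 h) and the 6 h array on slide 3. For the 47 factor genes the 24 h array of donor C had -0.23, and the other 11 arrays lay between -0.074 and 0.10. With each array centred on its median in place of loess, the ribosomal protein medians on slide 2 were -0.20 at 1 h and -0.47 at 24 h. Donor C at 24 h then had -0.60. The 24 h array of donor C had 51.9% of its probes well above background in Cy5, within the range of the others, and its ribosomal protein median was low under every normalization tried (-0.64 to -0.39). Changes of ribosomal protein genes at 24 h are therefore given with and without it.

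**Figure D2:**
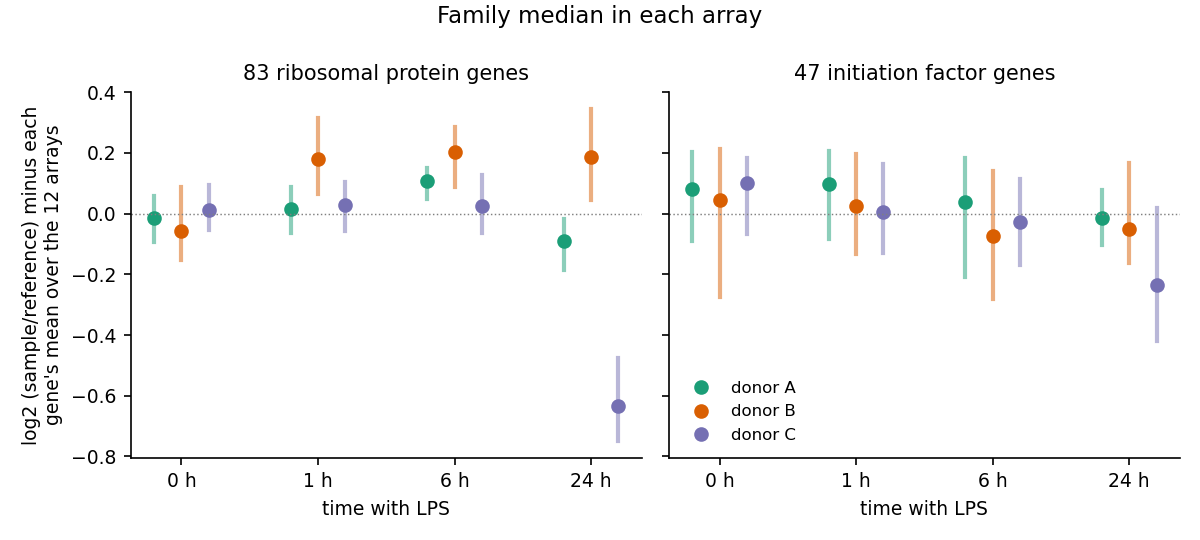
Median of 83 ribosomal protein genes (left) and 47 initiation factor genes (right) in each of the 12 arrays, as log2 ratio minus each gene's mean over the arrays, by time with LPS and donor. Points are medians and bars the interquartile ranges of the genes. The 24 h array of donor C sits at -0.63 for ribosomal proteins, and the other 11 arrays lie between -0.091 and 0.20.

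The arrays lay on 4 slides that hold the groups unevenly. Slide 1 held the 3 unstimulated arrays and donor A at 1 h, slide 2 donor B at 1 and 24 h, slide 3 donor C at 1 h with donors A and B at 6 h, and slide 4 donor C at 6 h with donors A and C at 24 h. With slide as a block, the unstimulated cells are tied to the others through 1 array only, and 5 residual degrees of freedom remain in place of 8. Under that fit 0, 1 and 2 ribosomal protein genes and 0, 3 and 4 factor genes were called at 1, 6 and 24 h, against 2.02%, 17.6% and 15.9% of all genes. At 6 h against 1 h it called 0 and 3 of them, against 24.6% of all genes, and at 24 h against 6 h 2 and 2, against 7.83%. Estimates from arrays that share a slide had the sign of the full fit for each member called in any of the 5 comparisons. They reuse arrays that gave the calls, so the shared sign is no separate test. At 24 h against 6 h they rest on slide 4, which holds the 24 h array of donor C. Group and slide cannot be fully told apart here, and the slide-block adjusted p stands beside the called changes of the members described below.

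At 1 h no member of either family was called by limma after Benjamini-Hochberg adjustment over all genes, against 7.5% of all genes tested. At an unadjusted p under 0.05, a looser threshold to which the 7.5% does not apply, there were 2 ribosomal protein genes and 11 factor genes. The median change was 0.095 over the ribosomal protein genes, -0.0027 over the factor genes and 0.018 over all genes. The changes ranged from -0.52 to 0.42 in ribosomal protein genes and from -0.42 to 0.63 in factor genes, whose highest was Eif2b2.

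At 6 h 1 ribosomal protein gene rose and 2 fell, while 4 factor genes rose and 9 fell, against 16.1% of all genes that rose and 23.6% that fell (39.7% called). The median changes were 0.12 for ribosomal protein genes, -0.045 for factor genes and -0.038 for all genes. An absolute change of 0.5 or more was reached by 3 of 83 ribosomal protein genes and 11 of 47 factor genes, against 33.3% of all genes. At 24 h no ribosomal protein gene rose and 10 fell, while 4 factor genes rose and 10 fell, against 18% of all genes that rose and 21.5% that fell (39.4% called). At an unadjusted p under 0.05, to which these shares of all genes do not apply, 14 ribosomal protein genes differed at 24 h. An absolute change of 0.5 or more was reached by 6 of 83 ribosomal protein genes and 11 of 47 factor genes at that time, against 32.3% of all genes. The median change of the ribosomal protein genes was -0.16, with -0.092 for factor genes and 0.022 for all genes. Without the 24 h array of donor C, 7 ribosomal protein genes were called at 24 h, of which 4 were among the 10, against 33.3% of all genes, and the median turned to 0.078. The 3 others, Rpl19, Rpl24 and Rps20, rose in that fit, by 0.58, 0.43 and 0.45. With each array centred on its median in place of loess, which moved the median of all genes by 0.088 at 6 h and -0.13 at 24 h, 3 ribosomal protein genes and 4 factor genes were called at 6 h, all higher, and 22 and 6 at 24 h, all lower, against 18.2% and 21.1% of all genes. With the scanner's processed signals 1 ribosomal protein gene was called higher and 4 lower at 6 h. The comparisons with unstimulated cells share the same 3 unstimulated arrays.

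Among large subunit genes, Rpl21 fell at 24 h, and it is the standard ribosomal protein with the largest change. Its log2 ratios were 0.79, 1.11 and 0.81 in unstimulated cells, 0.49, 0.39 and 0.75 at 1 h, 0.68, 0.51 and 0.66 at 6 h and -0.017, -0.61 and -0.31 at 24 h. Every 24 h array lay below every earlier array. The change was -1.22 (SE 0.16, adjusted p = 8.9e-05) at 24 h against unstimulated cells and -0.93 (SE 0.16, adjusted p = 0.0019) against 6 h. These were -1.22 and -0.93 without the 24 h array of donor C, and the adjusted p with a slide block was 0.0069 and 0.014.

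Rpl27a and Rpl14 moved the same way. Rpl27a had -0.093, -0.081 and -0.10 in unstimulated cells, -0.28, -0.25 and -0.32 at 1 h, -0.17, -0.26 and -0.28 at 6 h and -0.80, -0.57 and -1.32 at 24 h. All 3 arrays at 24 h were below all 9 earlier ones, with the lowest in donor C, and the change against unstimulated cells was -0.80 (SE 0.16, adjusted p = 0.0014). Rpl14 had -1.39, -1.48 and -1.48 in unstimulated cells, -1.6, -1.86 and -1.66 at 1 h, -1.75, -2.01 and -1.8 at 6 h and -2.14, -2.29 and -2.8 at 24 h, a gradual order in which the 24 h arrays were again the lowest. Its change was -0.96 (SE 0.16, adjusted p = 4.5e-04) at 24 h. Without the 24 h array of donor C the changes were -0.59 for Rpl27a (adjusted p = 0.0023) and -0.77 for Rpl14 (adjusted p = 0.0012). With a slide block the adjusted p was 0.14 and 0.15, past the threshold in neither.

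Other ribosomal protein genes were called at 24 h with a smaller change. The changes given here shrank without the 24 h array of donor C, least in Rpl31 and Rpl35a. Rpl35a had 0.43, 0.93 and 0.45 in unstimulated cells, 0.11, 0.29 and 0.75 at 1 h, 0.46, 0.72 and 0.50 at 6 h and 0.045, 0.076 and -0.33 at 24 h. Rps19, the small subunit protein mutated most often in Diamond-Blackfan anaemia, had 0.15, 0.45 and 0.40 in unstimulated cells, -0.13, 0.33 and 0.46 at 1 h, 0.36, 0.80 and 0.45 at 6 h and -0.12, 0.031 and -0.58 at 24 h. In both, the 3 values at 24 h lay below the 3 unstimulated values, with donor C lowest. Against unstimulated cells at 24 h, Rpl35a changed by -0.67 (SE 0.19, adjusted p = 0.013) and Rps19 by -0.56 (SE 0.19, adjusted p = 0.036). Without donor C at 24 h the changes were -0.54 (adjusted p = 0.059) for Rpl35a and -0.38 (adjusted p = 0.15) for Rps19. The slide-block adjusted p was 0.089 and 0.082. A second probe of Rpl35a changed by -0.26 and was not called. Rps2, Rpl8 and Rpl31 were called with changes of -0.50, -0.42 and -0.37. None of these 3 was called without that array, with changes of -0.28, -0.25 and -0.31 and adjusted p of 0.096, 0.11 and 0.13. Their slide-block adjusted p was 0.36, 0.19 and 0.42. With all arrays both probes of Rpl31 were called lower at 24 h, the other one with -0.88. Of the 2 probes of Rps2 (-0.50 and -0.42), 1 was called.

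At 24 h against 6 h, 1 ribosomal protein gene rose and 13 fell, against 9.67% of all genes that rose and 8.77% that fell (18.4% called). The median change was -0.26 over the ribosomal protein genes, -0.13 over the factor genes and 0.040 over all genes. Rpl4 had -1.4, -1.57 and -0.79 in unstimulated cells, -0.60, -1.29 and -0.92 at 1 h, -0.69, -0.74 and -0.67 at 6 h and -1.16, -1.34 and -1.98 at 24 h, so that its 24 h values lay among the unstimulated ones apart from donor C, and below all 6 h values. Rps3a1 had -1.11, -1.1 and -0.81 in unstimulated cells, -0.95, -0.72 and -0.70 at 1 h, -0.73, -0.63 and -0.84 at 6 h and -1.15, -1.14 and -1.69 at 24 h, with all 24 h values below all unstimulated and all 6 h values. They changed by -0.79 (adjusted p = 0.038) and -0.59 (adjusted p = 0.021) against 6 h, and without donor C at 24 h by -0.55 (adjusted p = 0.15) and -0.41 (adjusted p = 0.076). The slide block gave an adjusted p of 0.20 and 0.12. A second probe of Rps3a1 changed by -0.023 at 24 h against 6 h and was not called. Without that array 3 ribosomal protein genes were called, all among the 14 (Rpl21, Rpl27a and Rps19bp1), against 11.5% of all genes, and the median was -0.038. With both arrays of slide 2 left out in its place, a setting chosen after seeing the data, 38 were called, against 19.7% of all genes. At 6 h against 1 h, 1 ribosomal protein gene (Rps27l) rose and none fell, against 12% of all genes that rose and 16.2% that fell (28.2% called).

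**Figure D3:**
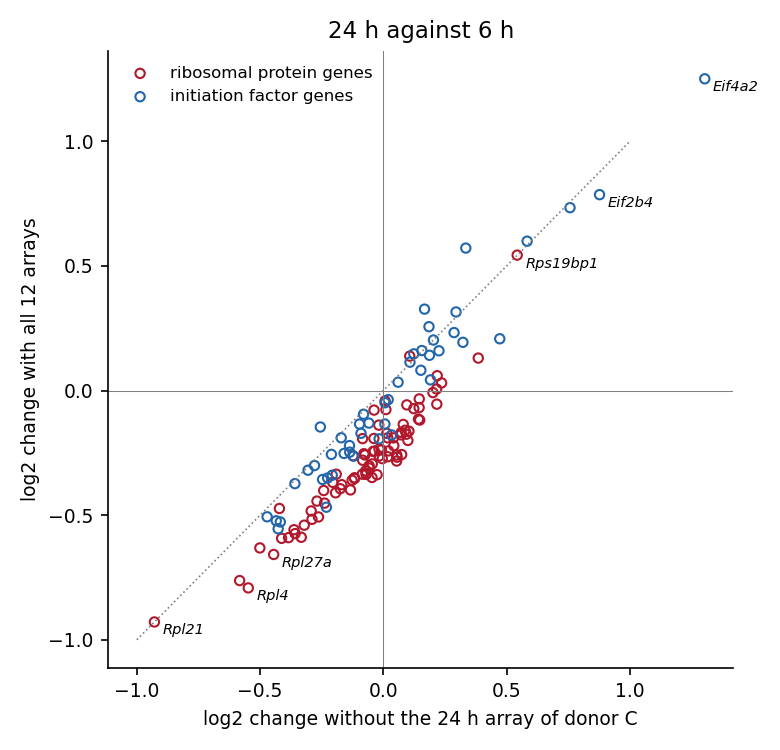
Log2 change at 24 h against 6 h with all 12 arrays (vertical axis) and without the 24 h array of donor C (horizontal axis), for each ribosomal protein and initiation factor gene. The dotted line marks equal values. Most ribosomal protein genes lie below it, while Rpl21, Rps19bp1 and Eif4a2 lie close to it.

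The only ribosomal protein gene that rose against unstimulated cells with all arrays was Rpl29, at 6 h. It had -0.59, -1.04 and -0.19 in unstimulated cells, 0.023, -0.27 and -0.30 at 1 h, 0.20, 0.095 and 0.025 at 6 h and -0.22, -0.34 and -0.89 at 24 h. The 3 values at 6 h were close together and above the 3 unstimulated values, of which donor B was far below donor C. The change was 0.71 (SE 0.21, adjusted p = 0.018), with an adjusted p of 0.097 under a slide block. The 4 probes of Rpl29 ranged from 0.27 to 0.71 at 6 h, and 3 of them were called higher.

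The proteins often used as landmarks of the ribosome were not called against unstimulated cells. Rps6, the small subunit protein that the S6 kinases phosphorylate, had -0.35, -0.37 and -0.069 in unstimulated cells, -0.20 and -0.25 on the arrays measured at 1 h, -0.082, 0.099 and -0.056 at 6 h and -0.34, -0.33 and -0.99 at 24 h, with 1 value at 1 h missing as an outlier spot. Rplp0, a stalk protein and common reference gene, had -0.49, -0.61 and -0.41 in unstimulated cells, -0.28, -0.26 and -0.52 at 1 h, -0.32, -0.35 and -0.33 at 6 h and -0.35, -0.068 and -0.80 at 24 h. Its 6 h values lay above all unstimulated values, and the groups overlapped at 1 and 24 h. Its changes were 0.15, 0.17 and 0.097 at 1, 6 and 24 h, and 0.29 at 24 h without donor C. Rps6 changed by -0.29 at 24 h (adjusted p = 0.21) and was called only against 6 h, with a change of -0.54 (adjusted p = 0.049), and with 0.27 under a slide block. Without donor C at 24 h these changes were -0.070 (adjusted p = 0.71) and -0.32 (adjusted p = 0.15). Rpl13a, which in human monocytes also acts outside the ribosome to silence inflammatory messages, had 0.59, 0.65 and 0.87 in unstimulated cells, 0.64, 1.12 and 0.83 at 1 h, 0.90, 1.05 and 0.88 at 6 h and 0.63, 0.86 and 0.32 at 24 h. Rps27a, made as a fusion with ubiquitin, had -0.44, -0.088 and -0.21 in unstimulated cells, -0.19, 0.34 and -0.16 at 1 h, -0.044, 0.14 and -0.17 at 6 h and -0.33, 0.16 and -0.84 at 24 h. Neither was called in any comparison, and in both the lowest value was donor C at 24 h.

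Of the 7 paralogs and relatives, 2 fell at 6 h. Rpl7l1, a paralog of Rpl7, had 0.20, 0.46 and -0.16 in unstimulated cells, -0.65, -0.41 and 0.0068 at 1 h, -0.89, -0.74 and -0.58 at 6 h and -0.80, -0.75 and -0.89 at 24 h. The values at 6 and 24 h lay below all unstimulated values and were close together. It changed by -0.90 (SE 0.18, adjusted p = 0.0018) at 6 h and -0.98 (SE 0.18, adjusted p = 0.001) at 24 h, with adjusted p of 0.017 and 0.019 under a slide block. Without donor C the 24 h change was -0.94 (adjusted p = 0.0055). A second, dimmer probe of Rpl7l1 changed by -0.0010 at 6 h and -0.22 at 24 h and was not called, so the fall rests on 1 probe. Rps19bp1, which encodes a partner of RPS19 that also binds the deacetylase SIRT1, had -0.42, -0.44 and -0.76 in unstimulated cells, -0.86, -0.58 and -0.80 at 1 h, -1.06, -1.01 and -0.89 at 6 h and -0.50, -0.39 and -0.44 at 24 h. It was lowest at 6 h, and all 24 h values lay above all 6 h values. It changed by -0.45 (adjusted p = 0.012) at 6 h and by 0.54 (adjusted p = 0.0097) at 24 h against 6 h, with adjusted p of 0.12 and 0.12 under a slide block. Without donor C at 24 h the second change was 0.54 (adjusted p = 0.03). Its other probe changed by -0.18 at 6 h, not called, and by 0.47 at 24 h against 6 h, called. Rps27l, a paralog of Rps27 that p53 induces in human cells, had 0.52, 0.77 and 0.27 in unstimulated cells, 0.14, 0.27 and 0.45 at 1 h, 0.76, 0.84 and 0.83 at 6 h and 0.62, 1.02 and 0.67 at 24 h. It rose at 6 h against 1 h, by 0.52 with adjusted p = 0.021, and with 0.068 under a slide block. Rpl22l1 had 0.46, 0.65 and 0.25 in unstimulated cells, 0.37, 0.18 and 0.40 at 1 h, 0.69, 0.42 and 0.65 at 6 h and 0.55, 0.38 and 0.049 at 24 h. Rpl39l had -3.44, -4.03 and -4.15 in unstimulated cells, -3.48, -4.0 and -4.34 at 1 h, -3.85, -3.97 and -3.43 at 6 h and -3.35, -3.71 and -4.35 at 24 h. Neither was called, nor were Rpl36al and Rpl3l, of which Rpl3l was above background on only 1, 1 and 2 arrays at 1, 6 and 24 h.

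The standard ribosomal protein genes shifted together from array to array. Over the 12 arrays, the median Pearson correlation between pairs of the 76 genes was 0.81 for deviations from group means, against 0.095 between pairs of factor genes and 0.24 between a ribosomal protein and a factor gene. These pairs share their arrays and therefore any shift of an array as a whole. Without the 24 h array of donor C the median between ribosomal protein genes was 0.50. The genes that followed the family median most closely over the 12 arrays were Rps7, Rps16 and Rps3 (r = 0.98, 0.98 and 0.97), and 62 of 76 had r over 0.7. These r use the values themselves and include the 24 h array of donor C. For values, the median between pairs was 0.74 over the 12 arrays and 0.39 without that array. Ribosomal protein genes have near-identical copies and processed pseudogenes, which a probe can also detect, and the probes were not tested for this.

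Because these genes shift together, the start of their promoters is shown. The RefSeq promoter table (GRCm38.p6) held 101 of the 130 members. A match was counted when a C opened a run of at least 5 pyrimidines (C or T) within 5 bases of an annotated start, on the strand of the gene. It was found in 27 of 56 standard ribosomal protein genes (48.2%), 9 of 38 factor genes (23.7%) and 23.5% of 8958 genes tested. The letters CGGAAG, the core bound by ETS family and GABP factors, were found on either strand of the 300-base promoter in 69.6%, 57.9% and 33.6%. The 40 bases around the start, 20 before and 20 from the start on, follow with the run in capitals, for members described in this section with a run (Rpl14, Rpl27a, Rps6, Rpl13a and Eif3l) and without one (Rpl4, Rplp0, Eif4a1, Eif4a2 and Eif3a).
Rpl14, chr9:120571497-120571536, plus strand: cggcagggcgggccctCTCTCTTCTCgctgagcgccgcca
Rpl27a, chr7:109519175-109519214, plus strand: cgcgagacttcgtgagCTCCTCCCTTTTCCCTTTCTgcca
Rps6, chr4:86857348-86857387, minus strand: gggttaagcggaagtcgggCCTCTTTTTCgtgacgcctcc
Rpl13a, chr7:45128726-45128765, minus strand: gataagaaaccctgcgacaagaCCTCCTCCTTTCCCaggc
Eif3l, chr15:79075203-79075242, plus strand: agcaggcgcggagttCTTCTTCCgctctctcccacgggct
Rpl4, chr9:64173367-64173406, plus strand: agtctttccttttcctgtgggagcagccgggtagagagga
Rplp0, chr5:115559447-115559486, plus strand: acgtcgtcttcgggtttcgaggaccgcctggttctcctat
Eif4a1, chr11:69672404-69672443, minus strand: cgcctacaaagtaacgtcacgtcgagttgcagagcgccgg
Eif4a2, chr16:23107448-23107487, plus strand: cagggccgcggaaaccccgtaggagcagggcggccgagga
Eif3a, chr19:60790674-60790713, minus strand: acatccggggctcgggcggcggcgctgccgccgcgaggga

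A match describes letters in the window and no site of binding, and a gene can have several annotated starts. Among the standard ribosomal protein genes, the median change at 24 h was -0.12 for the 27 with a run and -0.20 for the 29 without. Of these, 5 with a run and 1 without were called lower, against 21.5% of all genes. At 24 h against 6 h the medians were -0.29 and -0.26, with 6 and 4 called lower, against 8.77% of all genes. Without the 24 h array of donor C, the medians at 24 h were 0.093 with a run and 0.046 without. Then 2 and 0 were called lower and 1 of each higher, against 33.3% of all genes called. At 24 h against 6 h they were then -0.046 and -0.036, with 1 and 0 called lower, against 11.5% of all genes called. The difference between genes with and without a run was not tested.

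The initiation factors moved gene by gene, and the clearest case is the eIF4A pair. Eif4a1 and Eif4a2 encode 2 close forms of the helicase that unwinds the leader of a message, and they changed in opposite directions at 24 h. Eif4a2 had -0.76, -0.81 and -0.48 in unstimulated cells, -0.64, -0.79 and -0.79 at 1 h, -0.92, -0.93 and -1.1 at 6 h and 0.42, 0.22 and 0.16 at 24 h. All 3 arrays at 24 h lay above all 9 others. The gene rose by 0.95 (SE 0.12, adjusted p = 8.3e-05) against unstimulated cells, 1.93-fold, and by 1.25 (SE 0.12, adjusted p = 6.5e-05) against 6 h, 2.38-fold. With a slide block the adjusted p was 0.014 and 0.0014, and both probes of Eif4a2 were called higher (0.75 and 0.95 at 24 h).

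Eif4a1 had -0.71, -0.75 and -0.61 in unstimulated cells, -0.35, -0.34 and -0.41 at 1 h, -0.74, -0.87 and -0.87 at 6 h and -1.04, -1.08 and -1.77 at 24 h. The 24 h arrays were the lowest, donor C lowest of all, while the 1 h arrays lay above every other. Eif4a1 changed by -0.61 on the log2 scale at 24 h (SE 0.16, adjusted p = 0.011), and by -0.37 without donor C at 24 h (adjusted p = 0.023). Its 3 probes ranged from -0.74 to -0.57. With a slide block the adjusted p was 0.37. Eif4a3, the helicase of the exon junction complex, had -0.20, -0.31 and -0.20 in unstimulated cells, -0.042, -0.52 and -0.027 at 1 h, -0.52, -0.52 and -0.39 at 6 h and -0.62, -0.83 and -1.06 at 24 h. It fell at 24 h, with a change of -0.60 (adjusted p = 0.0067), with 0.42 under a slide block.

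The other eIF4 genes and the eIF4E-binding proteins were mostly not called. Eif4e, the cap-binding protein, had -0.23, -0.11 and -0.40 in unstimulated cells, -0.27, -0.48 and -0.056 at 1 h, -0.082, -0.11 and -0.099 at 6 h and -0.32, -0.38 and -0.024 at 24 h. Its groups overlapped, and its changes at 1, 6 and 24 h were -0.024, 0.15 and 0.0022 (SE 0.14). Eif4e3, a divergent cap-binding relative, had 1.69, 1.58 and 1.45 in unstimulated cells, 1.76, 1.78 and 1.26 at 1 h, 1.83, 1.46 and 1.39 at 6 h and 1.48, 1.46 and 1.23 at 24 h. Eif4g1, the scaffold that joins the cap complex to eIF3, had -1.49, -1.99 and -1.53 in unstimulated cells, -1.18, -1.71 and -1.54 at 1 h, -1.7, -1.86 and -1.61 at 6 h and -1.66, -1.9 and -2.0 at 24 h. None of these 3 genes was called in any comparison on the probe used here. A second probe of Eif4e was called lower at 24 h against unstimulated cells (-0.56) and against 6 h (-0.49), and a second probe of Eif4e3 at 24 h (-0.48), so no direction is given for these 2 genes.

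Eif4ebp1, the repressor that mTOR inactivates, had -0.79, -0.95 and -0.43 in unstimulated cells, -0.38, -0.48 and -0.72 at 1 h, -0.66, -1.15 and -0.83 at 6 h and -0.70, -0.39 and 0.17 at 24 h. Only donor C at 24 h stood above the others, and the change of 0.41 (adjusted p = 0.15) was not called. Eif4ebp2, a second repressor of the family, had 0.60, 0.60 and 0.44 in unstimulated cells, 0.58, 0.43 and 0.50 at 1 h, 0.0095, -0.28 and 0.23 at 6 h and 0.29, 0.060 and 0.39 at 24 h. The 6 h values were below all unstimulated and 1 h values. It changed by -0.56 at 6 h on the log2 scale (SE 0.14, adjusted p = 0.0063), with 0.11 under a slide block, and by -0.52 against 1 h, with 0.015. Eif4enif1, which carries eIF4E into the nucleus, had -0.18, -0.050 and -0.36 in unstimulated cells, -0.46, -0.61 and -0.39 at 1 h, -0.072, 0.028 and -0.047 at 6 h and -0.18, -0.30 and -0.38 at 24 h. It rose at 6 h against 1 h, by 0.45 (adjusted p = 0.01), with 0.068 under a slide block, and its other probe changed by 0.080 and was not called.

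**Figure D4:**
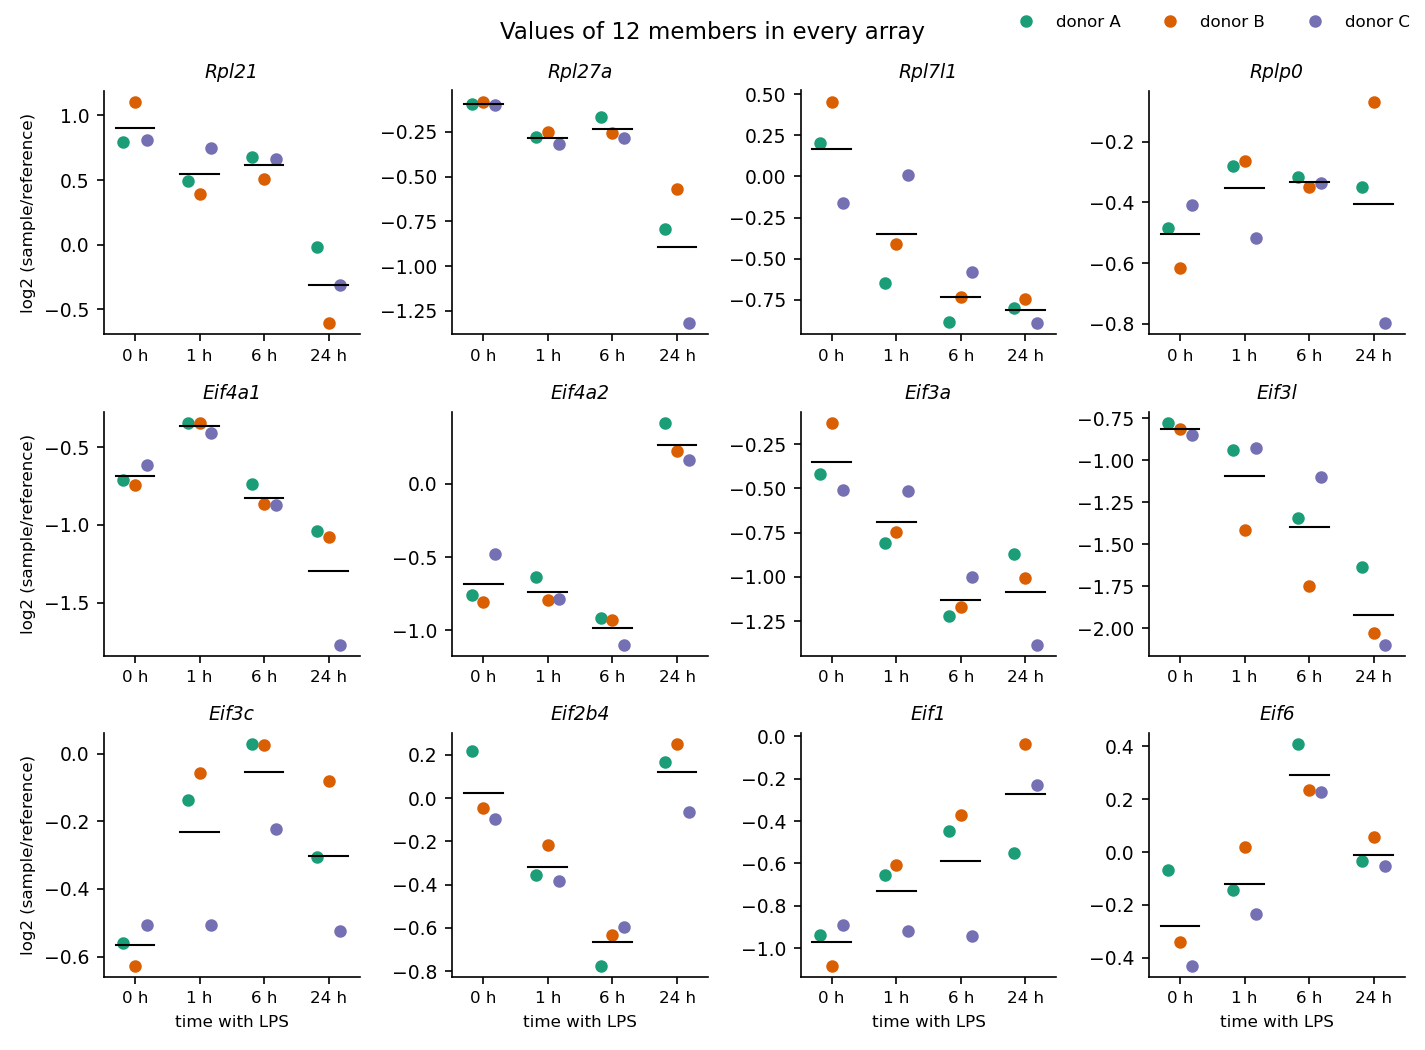
Log2 ratio of sample to reference in every array for 12 members, by time with LPS and donor, with the group mean as a line. Vertical scales differ between genes. Eif4a2 is highest and Rpl21, Rpl27a, Eif4a1 and Eif3l are lowest at 24 h, while Eif2b4 is lowest and Eif6 highest at 6 h.

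Of the 13 eIF3 subunit genes, 4 fell and 1 rose at 6 h, and 5 fell at 24 h. Of all genes 23.6% fell and 16.1% rose at 6 h, and 21.5% fell at 24 h. Eif3a, the largest subunit and a core of the complex, had -0.42, -0.13 and -0.51 in unstimulated cells, -0.81, -0.75 and -0.52 at 1 h, -1.22, -1.17 and -1.0 at 6 h and -0.87, -1.0 and -1.38 at 24 h. Its 6 and 24 h values lay below all unstimulated and 1 h values. Eif3l, a peripheral subunit, had -0.78, -0.82 and -0.85 in unstimulated cells, -0.94, -1.42 and -0.93 at 1 h, -1.34, -1.75 and -1.1 at 6 h and -1.64, -2.03 and -2.1 at 24 h. Its group mean was lower at each later time, with a wide spread at 6 h. Eif3a changed by -0.78 (SE 0.15, adjusted p = 0.0015) at 6 h and -0.74 (SE 0.15, adjusted p = 0.0023) at 24 h, and Eif3l by -0.58 (SE 0.19, adjusted p = 0.024) and -1.11 (SE 0.19, adjusted p = 5.1e-04). A slide block gave adjusted p of 0.056 and 0.073 for Eif3a and 0.32 and 0.059 for Eif3l.

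Eif3b, the other core scaffold, had 0.045, -0.14 and -0.28 in unstimulated cells, -0.32, -0.059 and -0.37 at 1 h, -0.84, -0.75 and -0.57 at 6 h and -0.51, -0.56 and -0.67 at 24 h. Eif3j1, which sits in the decoding centre and is loosely held, had 0.17, 0.31 and 0.016 in unstimulated cells, -0.10, 0.027 and -0.075 at 1 h, -0.51, -0.39 and -0.54 at 6 h and -0.48, -0.45 and -0.63 at 24 h. In both genes the 6 and 24 h values lay below all unstimulated values. At 6 h they changed by -0.60 (adjusted p = 0.0027) and -0.65 (adjusted p = 6.3e-04), and at 24 h by -0.45 (adjusted p = 0.014) and -0.69 (adjusted p = 4.4e-04). With a slide block none of these 4 was called (adjusted p from 0.061 to 0.077). The fall of Eif3b rests on 1 probe, since its other probe changed by -0.069 at 6 h and 0.051 at 24 h and was not called. A second probe of Eif3j1 changed by -0.27 at 6 h, not called, and by -0.65 at 24 h, called. Eif3k, the partner of Eif3l, had 1.3, 1.06 and 1.46 in unstimulated cells, 1.37, 1.27 and 1.38 at 1 h, 1.36, 1.34 and 1.45 at 6 h and 1.09, 0.84 and 0.64 at 24 h. At 24 h it was lower than at 6 h, with a change of -0.53 (adjusted p = 0.019), and without donor C at 24 h the adjusted p was 0.077, and with a slide block 0.12.

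Eif3c, which contacts eIF1 and eIF5, went the other way. It had -0.56, -0.63 and -0.51 in unstimulated cells, -0.14, -0.056 and -0.51 at 1 h, 0.029, 0.027 and -0.22 at 6 h and -0.30, -0.079 and -0.52 at 24 h. All 6 h values lay above all unstimulated values, and the change was 0.51 (SE 0.15, adjusted p = 0.015), with 0.024 under a slide block. Of its 4 probes, 2 were called higher at 6 h. The 7 eIF3 genes called in no comparison with unstimulated cells had changes between -0.39 and 0.42 at 6 h.

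**Figure D5:**
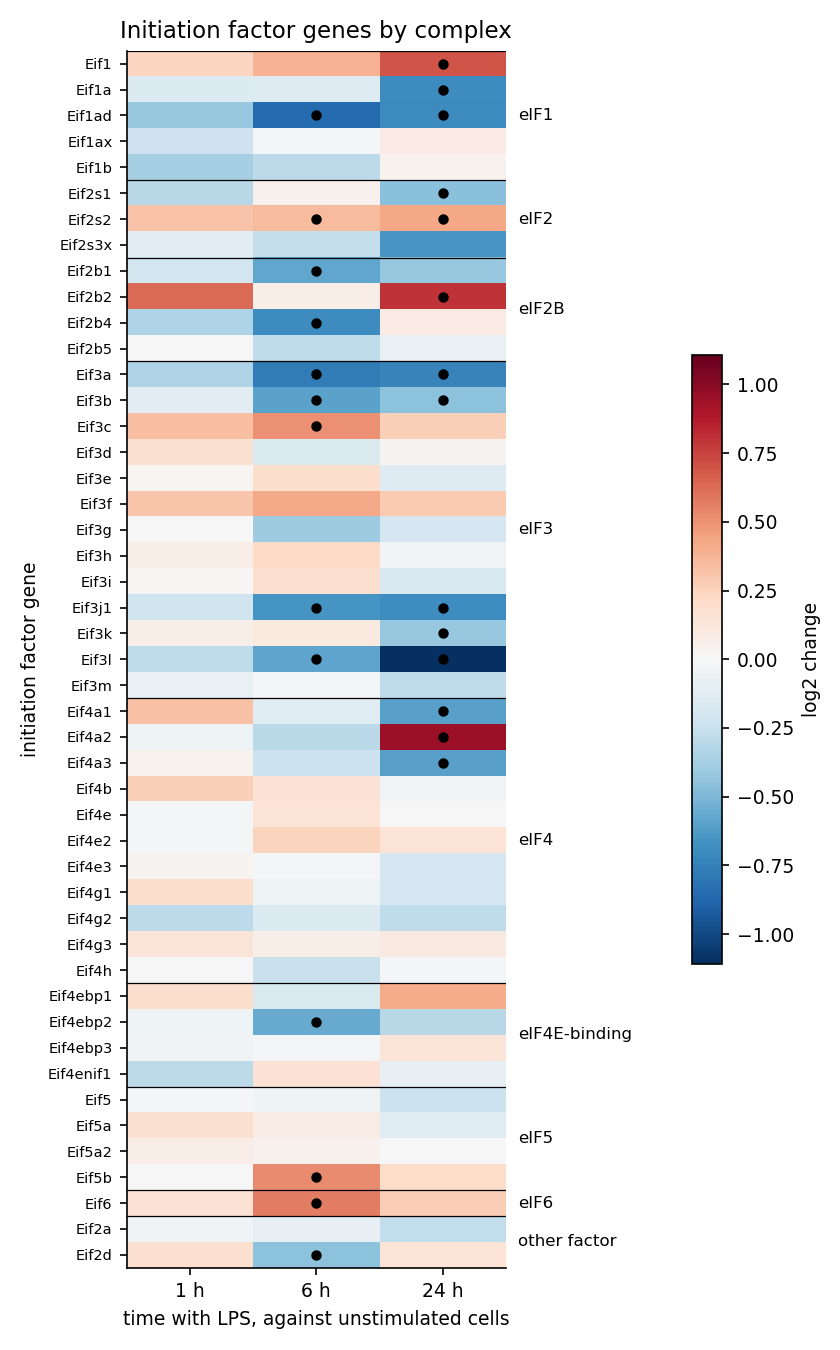
Log2 change of the 47 initiation factor genes at 1, 6 and 24 h against unstimulated cells, grouped by complex, with red for higher, blue for lower and black dots for called genes. No gene is called at 1 h, and at 24 h Eif4a2 (0.95) and Eif3l (-1.11) mark the ends of the range.

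Genes whose symbols begin with Eif1 also went in both directions. Eif1, whose protein guards the choice of start codon, had -0.94, -1.08 and -0.89 in unstimulated cells, -0.65, -0.61 and -0.92 at 1 h, -0.45, -0.37 and -0.94 at 6 h and -0.55, -0.036 and -0.23 at 24 h, and all 24 h values lay above all unstimulated values. Eif1a, an autosomal relative of Eif1ax, had 0.30, 0.53 and 0.28 in unstimulated cells, 0.15, -0.016 and 0.52 at 1 h, 0.24, 0.30 and 0.13 at 6 h and -0.26, -0.15 and -0.59 at 24 h, with all 24 h values below all others. At 24 h Eif1 rose by 0.70 (SE 0.17, adjusted p = 0.006) and Eif1a changed by -0.70 (SE 0.16, adjusted p = 0.0034). Their slide-block values were 0.019 and 0.17. Of the 2 probes of Eif1, 1 was called at 24 h, and the other changed by 0.27. Eif1ad had -0.38, 0.11 and -0.62 in unstimulated cells, -0.97, -0.74 and -0.45 at 1 h, -1.43, -1.03 and -0.99 at 6 h and -1.1, -0.95 and -0.95 at 24 h. It was lower at 6 h, with a change of -0.85 (adjusted p = 0.0036), and at 24 h, with -0.71 (adjusted p = 0.011), with 0.04 and 0.072 under a slide block. A second probe of Eif1ad changed by -0.25 at 6 h, not called, and by -0.60 at 24 h, called. Eif1ax and Eif1b were not called on the probes used here, but another probe of Eif1ax was called lower at 6 h (-0.52) and 24 h (-0.77), so no direction is given for that gene.

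For eIF2, the complex that carries the initiator tRNA, Eif2s1 encodes the alpha subunit that the stress kinases phosphorylate. It had -0.17, 0.020 and -0.30 in unstimulated cells, -0.44, -0.74 and -0.19 at 1 h, -0.18, -0.12 and -0.0080 at 6 h and -0.56, -0.58 and -0.68 at 24 h. The 24 h values lay below all unstimulated and 6 h values, a change of -0.46 (adjusted p = 0.021) against unstimulated cells. The adjusted p was 0.065 without donor C at 24 h and 0.33 with a slide block. Eif2s2, the beta subunit, was called higher at 6 h (0.35) and 24 h (0.43) on the probe used here, with 0.063 and 0.038 under a slide block, but its other probe was called lower at 24 h (-0.48), so no direction is given for that gene.

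The eIF2B genes, which encode the exchange factor that recharges eIF2, each took their own course. Eif2b4, the delta subunit, had 0.22, -0.043 and -0.096 in unstimulated cells, -0.36, -0.22 and -0.38 at 1 h, -0.77, -0.63 and -0.60 at 6 h and 0.17, 0.25 and -0.063 at 24 h. It was lowest at 6 h, and the 24 h values overlapped the unstimulated ones. The change was -0.69 (SE 0.13, adjusted p = 8.3e-04) at 6 h and 0.79 (SE 0.13, adjusted p = 0.0012) at 24 h against 6 h, with 0.082 and 0.026 under a slide block. Its other probe changed by -0.15 at 6 h and 0.42 at 24 h against 6 h and was called in neither, so these calls rest on 1 probe. Eif2b1, the alpha subunit, fell at 6 h, with a change of -0.58 (adjusted p = 0.011), and with 0.26 under a slide block. Eif2b2, the beta subunit, had 0.23, 0.053 and 0.36 in unstimulated cells, 0.58, 1.51 and 0.44 at 1 h, 0.18, 0.31 and 0.36 at 6 h and 0.88, 1.2 and 0.97 at 24 h. It rose at 24 h, by 0.80 (adjusted p = 0.012), with 0.45 under a slide block, and 1 of the arrays at 1 h (donor B) was the highest of all. Eif2b5, the catalytic epsilon subunit, had 0.030, -0.45 and -0.14 in unstimulated cells, -0.036, -0.24 and -0.30 at 1 h, -0.39, -0.62 and -0.41 at 6 h and -0.19, -0.35 and -0.27 at 24 h and was not called.

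Among the late-acting factors, Eif5b and Eif6 rose at 6 h. Eif5b, the GTPase that joins the large subunit, had 0.038, -0.12 and -0.0060 in unstimulated cells, 0.17, 0.16 and -0.38 at 1 h, 0.69, 0.41 and 0.39 at 6 h and 0.23, 0.16 and 0.15 at 24 h. Eif6, which keeps a free large subunit from joining too early, had -0.067, -0.34 and -0.43 in unstimulated cells, -0.14, 0.018 and -0.23 at 1 h, 0.41, 0.24 and 0.23 at 6 h and -0.035, 0.057 and -0.054 at 24 h. In both, all 6 h values lay above all other groups, with 24 h values in between or back among earlier ones. The changes at 6 h were 0.53 (SE 0.15, adjusted p = 0.014) for Eif5b and 0.57 (SE 0.12, adjusted p = 0.0027) for Eif6, with 0.041 and 0.10 under a slide block. At 6 h 3 of 5 probes of Eif5b and both of Eif6 were called higher. Eif2d, a factor that can deliver tRNA without eIF2, had -0.084, -0.51 and 0.065 in unstimulated cells, 0.14, 0.065 and -0.20 at 1 h, -0.61, -0.65 and -0.61 at 6 h and 0.13, -0.21 and 0.0067 at 24 h. It was lowest at 6 h, with changes of -0.45 (adjusted p = 0.035) against unstimulated cells and -0.63 (adjusted p = 0.0093) against 1 h, and with 0.60 and 0.054 under a slide block. Eif5, the activator of eIF2's GTPase step, had 0.79, 0.85 and 0.45 in unstimulated cells, 0.79, 0.78 and 0.50 at 1 h, 0.92, 0.55 and 0.49 at 6 h and 0.23, 0.73 and 0.43 at 24 h. Eif5a, which carries hypusine and eases elongation, had -1.01, -1.35 and -1.01 in unstimulated cells, -0.82, -1.2 and -0.85 at 1 h, -1.02, -1.29 and -0.81 at 6 h and -1.15, -1.21 and -1.43 at 24 h. Both overlapped between all groups and were not called.

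To set the families against each other, the median log2 ratio of the factor genes was subtracted from that of the ribosomal protein genes in each array. This difference of levels differed from that in unstimulated cells by 0.22 at 1 h, 0.28 at 6 h and -0.027 at 24 h, and at 24 h against 6 h by -0.31. It need not equal the difference of the median changes, which were 0.095 and -0.0027 at 1 h and 0.12 and -0.045 at 6 h for ribosomal protein and factor genes. The SD of this difference over the 3 arrays was 0.22 at 1 h, 0.12 at 6 h, 0.32 at 24 h and 0.032 in unstimulated cells. At 24 h the difference from unstimulated cells was smaller than the spread between replicates, and without donor C it was 0.14. At 24 h against 6 h, 4 of 47 factor genes rose and 3 fell, against 9.67% and 8.77% of all genes, and at 6 h against 1 h, 3 rose and 5 fell, against 12% and 16.2%. With median centring 58 ribosomal protein genes fell at 24 h against 6 h, while 1 factor gene rose and 2 fell, against 8.37% of all genes, and at 6 h against 1 h 2 and 3 genes were called, all higher, against 13.1%.

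Other genes of protein synthesis were counted from lists. Of 37 genes of ribosome biogenesis, the nucleolar machinery that makes ribosomal RNA and assembles subunits, none was called at 1 h by limma, 24 fell and none rose at 6 h, and 29 fell and none rose at 24 h. Of all genes 23.6% fell and 16.1% rose at 6 h, and 21.5% fell and 18% rose at 24 h. The median changes of the list were -0.089, -0.57 and -0.75 at 1, 6 and 24 h. Nop58, Wdr12 and Nop56 fell most at 24 h, with changes of -1.83, -1.69 and -1.61 on the log2 scale. With a slide block 8 genes of the list were called at 6 h and 19 at 24 h, and the adjusted p of these 3 at 24 h was 0.002, 0.012 and 0.0052. Of 12 elongation and release genes, 1 rose and 3 fell at 6 h, and none rose and 5 fell at 24 h, with Eef1d (-0.83), Eef1g (-0.68) and Eef1e1 (-0.62) lowest. None of this list was called at 6 or 24 h with a slide block. Of 18 cytosolic aminoacyl-tRNA synthetases, 1 rose and 5 fell at 6 h, and none rose and 6 fell at 24 h. Wars rose by 0.80 at 6 h, and Dars and Iars were lowest at 24 h (-1.03 and -0.93). The slide block called 1 of this list at 6 h and none at 24 h, and Wars at 6 h had an adjusted p of 0.19.

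Regulators of initiation were counted in the same way. Of 11 genes of the eIF2 kinases and stress translation, 4 rose and none fell at 1 h, against 7.5% of all genes called, 5 rose and 2 fell at 6 h, and 4 rose and 1 fell at 24 h. The numbers called with a slide block were 2, 7 and 3. Beside this and the next lists, 16.1% of all genes rose and 23.6% fell at 6 h (39.7% called). At 24 h 18% of all genes rose and 21.5% fell (39.4% called). Ppp1r15a, which brings a phosphatase to eIF2 alpha, rose by 2.72 (SE 0.29, adjusted p = 8.5e-05) at 1 h, with 0.0015 under a slide block. Eif2ak2, the interferon-induced kinase PKR, rose by 1.86 (SE 0.23, adjusted p = 4.5e-05) at 6 h and was lower at 24 h than at 6 h, with a change of -1.53 (adjusted p = 7.3e-04), and with 0.024 and 0.011 under a slide block. Of 18 mTOR and S6 kinase genes, 3 rose and 4 fell at 6 h, with Ddit4, an mTOR inhibitor, at -2.17 and at 2.45 for 24 h against 6 h (0.052 and 0.013 with a slide block, which called 3 of the list at 6 h). Of 10 poly(A)-binding and cap regulators, 2 rose and 2 fell at 6 h, and 4 rose and 1 fell at 24 h, among them Pabpc1 (0.77) and Mknk2, an eIF4E kinase (0.93). Under a slide block 1 of this list was called at 6 h and none at 24 h, where Pabpc1 had 0.062 and Mknk2 0.06. None of 4 ribosomal protein genes outside the symbol rule was called.

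Markers of other cells moved over the same hours. Of 13 markers of proliferating cells, 3 fell at 1 h, 12 at 6 h and 12 at 24 h, with median changes of -0.76, -1.75 and -1.99, and with a slide block 0, 6 and 11 were called. Of 7 neutrophil markers that passed the filter, 3 fell at 1 h, 6 at 6 h and 6 at 24 h. Of all genes 7.5% were called at 1 h, and 23.6% fell at 6 h and 21.5% at 24 h. S100a8, S100a9, Ltf, Mpo and Prtn3 stayed above background on all LPS arrays. Camp was above background on 2 unstimulated arrays and on no LPS array, and Elane on no array. The median log2 ratio of the neutrophil list ranged over the arrays from 0.31 to 0.42 at 24 h, against 1.2 to 1.88 in unstimulated cells. Of 8 macrophage or monocyte markers, 2 rose and 5 fell at 24 h. Their part in the changes of ribosomal protein and factor genes was not tested. In bulk RNA, fewer cells of a type and less RNA per cell cannot be told apart.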

How the data were processed

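The 12 arrays were Agilent 2-colour arrays of BMDCs. The deposited scanner files hold median spot intensity and local background in both channels, extracted with Feature Extraction 10.7.3.1 per the file headers. The authors' deposited log2 ratios in the series table, made with limma per the submitters' processing notes, served as an alternative (r of at least 0.999 with the values used here, slopes 0.985 to 1.00). No column of per-sample values was left unmapped.

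Local backgrounds marked as outliers were replaced by the array's median. Normexp with offset 50 and loess within arrays (span 0.3) gave log2 Cy5/Cy3, with control spots at weight 0 and outlier spots left out. Spots of a probe were averaged. Of 41174 probes, 22951 were named through RefSeq accessions. Groups were compared with limma 3.58.1 in R 4.3.3 (lmFit, eBayes, 8 residual degrees of freedom) over 11077 genes, and p-values were adjusted by Benjamini-Hochberg. Called means an adjusted p under 0.05. Code was tested on simulated data.

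The members and lists were chosen with earlier results of these data known. Values in every sample are given for the 6 called members of largest change per family and comparison and for 22 fixed members. From each list of other genes, called genes of largest change are named. Replicate numbers come from the donor letters in the labels. Deviations from group means correlated with a median r of 0.11 over 18 pairs of arrays of 1 donor (-0.21 to 0.58, over 0.1 in 9), and -0.013 over 36 pairs of different donors, so the donor block is an alternative. Other alternatives were the slide, the background, the normalization, the filter, the probe choice and leaving out each array. Promoter sequences are RefSeq's (GRCm38.p6). Protein sequences were not used here. The values of 1 member are not reported here.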

Additional observations from a re-analysis of the deposited data

Results flagged for a closer look

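For 9 of the members reported here the changes at 6 h and 24 h against unstimulated cells had opposite signs, at least 1 of them was called, and the test of the difference itself, 24 h against 6 h in the limma fit, was past the threshold. In each of the 9 the other change was not called, so opposite signs do not show a reversal. In 4 of them the 24 h value was the higher one. Eif4a2 differed by 1.25 (SE 0.12, adjusted p = 6.5e-05), with 0.95 at 24 h and -0.30 at 6 h. Eif2b4 differed by 0.79 (SE 0.13, adjusted p = 0.0012), with 0.093 at 24 h and -0.69 at 6 h. Eif2d differed by 0.60 (adjusted p = 0.019), with 0.15 at 24 h and -0.45 at 6 h. Rps19bp1 differed by 0.54 (adjusted p = 0.0097), with 0.097 at 24 h and -0.45 at 6 h. In the 5 others the 24 h value was the lower one. They were Rps19, which differed by -0.76 with adjusted p = 0.017, Eif3k by -0.53 with adjusted p = 0.019, Eif2s1 by -0.51 with adjusted p = 0.027, Rpl31 by -0.47 with adjusted p = 0.028 and Rpl8 by -0.44 with adjusted p = 0.044. In that order their changes at 6 h were small, 0.20, 0.11, 0.047, 0.11 and 0.020. At 24 h they were -0.56, -0.42, -0.46, -0.37 and -0.42. None of these 5 was called without the 24 h array of donor C, whose ribosomal protein median stood apart. That fit has 1 array fewer and called 11.5% of all genes, against 18.4% with all arrays. For Eif2s1 the 24 h values of donors A, B and C were -0.56, -0.58 and -0.68, so donor C did not stand apart there. Of the 4 that were higher, Eif4a2, Eif2b4 and Rps19bp1 were called without the 24 h array of donor C (adjusted p = 4.0e-04, 0.0018 and 0.03), and Eif2d was not (0.059). With a slide block, Eif4a2 and Eif2b4 were the only ones of the 9 called at 24 h against 6 h, against 7.83% of all genes.

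Eif2s3y, the Y-linked gene of the eIF2 gamma subunit, entered no comparison because its probe missed the filter, yet it was well above background on 4 of the 12 arrays, which are the 4 arrays of donor A.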

How the results depend on the processing

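Of 40 single-gene results for 25 members, 4 kept their direction and their call under all 25 alternatives: Rpl21 at 24 h and at 24 h against 6 h, Rpl7l1 at 24 h, and Eif4a2 at 24 h against 6 h. None of the 40 changed sign. Calls kept were 18 of 40 under median centring, 22 with local backgrounds as deposited, 29 with the Cy5 channel alone, 11 with slide as a fixed block, and 35 to 40 under the other settings that keep all arrays. The cause was not tested.

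Donor as a replicate block kept 39 of the 40 calls and changed no count by more than 1.5 times (10 against 11 ribosomal protein genes at 24 h).

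Counts of called genes that moved by over 1.5 times were these. With slide as a fixed block, 1 and 3 ribosomal protein and factor genes were called at 6 h, 2 and 4 at 24 h, 0 and 3 at 6 h against 1 h, and 2 and 2 at 24 h against 6 h, and the difference of family medians at 1 h was 0.033. With slide as a random block, 9 ribosomal protein genes were called at 24 h against 6 h. With median centring, which moved the median of all genes by -0.14, 0.088, -0.13, 0.22 and -0.22 in the 5 comparisons, 4 factor genes were called at 6 h (4 higher, 0 lower), 22 and 6 genes at 24 h (all lower), 2 and 3 at 6 h against 1 h (all higher), and 58 and 3 at 24 h against 6 h, where the 58 were lower and the 3 were 1 higher and 2 lower. The 3 ribosomal protein genes called at 6 h were then all higher. With the Cy5 channel alone, 5 ribosomal protein genes were called at 24 h and 7 at 24 h against 6 h, with 0 and 5 genes at 6 h against 1 h. With processed signals, 5 ribosomal protein genes were called at 6 h (1 higher, 4 lower) and 9 at 24 h against 6 h. With backgrounds as deposited, 7 factor genes were called at 6 h, 6 ribosomal protein genes at 24 h, 0 and 3 genes at 6 h against 1 h, and 2 and 2 at 24 h against 6 h, with family differences of 0.093 at 6 h and -0.11 at 6 h against 1 h. The mean of all probes gave a difference of 0.19 at 6 h. Without both arrays of slide 2, added after seeing the data, 6, 21 and 38 ribosomal protein genes were called at 6 h, at 24 h and at 24 h against 6 h.

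Leaving out 1 array at a time gave 0 to 1 ribosomal protein and 0 to 1 factor genes at 1 h, 1 to 7 and 8 to 14 at 6 h, 5 to 19 and 10 to 15 at 24 h, 0 to 1 and 4 to 11 at 6 h against 1 h, and 3 to 25 and 2 to 9 at 24 h against 6 h. The highest ribosomal protein counts at 24 h, 19 and 25, came without donor B at 24 h, and the lowest at 24 h against 6 h without donor C at 24 h or donor A at 6 h. The differences of family medians ranged from 0.098 to 0.31 at 1 h, 0.22 to 0.33 at 6 h, -0.19 to 0.14 at 24 h, -0.025 to 0.19 at 6 h against 1 h, and -0.47 to -0.15 at 24 h against 6 h.

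The median change of the ribosomal protein genes was negative at 1 h with median centring (-0.10) and at 6 h with backgrounds as deposited (-0.010), and positive at 24 h without donor C. Of 57 members with several probes, 9 had probes that differed by over 0.5 at 24 h. Fits without an array hold 2 arrays in that group and pool the spread of the others.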

Other observations

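Eif2s3y and other sex-linked genes gave the same picture in each array of a donor letter. Eif2s3y, the Y-linked copy of the eIF2 gamma gene, had log2 ratios between 2.86 and 3.20 on the 4 arrays of donor A and between -1.72 and -1.05 on the 8 arrays of donors B and C, where it was not well above background. The Y-linked genes Ddx3y and Kdm5d were well above background on the 4 arrays of donor A only. Ddx3y lay between 0.66 and 1.17 in donor A and between -1.92 and -1.14 in the others. Xist, expressed from the inactive X chromosome, lay between -1.32 and -1.04 in donor A, where it was well above background on no array, and between 1.29 and 2.26 in the others. The labels give no sex. The X-linked copy Eif2s3x, on the probe used here, had -0.99, -1.09, -1.07 and -1.18 in donor A at 0, 1, 6 and 24 h. In donor B it had -0.19, -0.32, -0.50 and -0.96, and in donor C -0.15, -0.28, -0.57 and -1.12, so donor A was the lowest at each time and the donors lay close together at 24 h. Its second probe was also lowest in donor A at each time, but on another probe donor A was in between at 0 h and the highest at 1, 6 and 24 h (1.16, 1.5 and 1.18), so the order of the donors depends on the probe. These genes were picked after their values were seen, and no test was made.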
